A study of Mus musculus with 78 samples.

Results

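The genes described here are 9 markers and regulators of cardiac and lateral plate mesoderm, Hand1, Hand2, Myl7, Tnnt2, Nkx2-5, Tbx20, Mef2c, Foxf1 and Gata5. They were taken by gene symbol from the deposited expression tables, which share 22563 genes, and all 9 were listed. The study followed gene expression and the epigenome in mouse embryos through implantation and gastrulation, and 30 of its 78 samples are RNA-seq libraries with expression values, 2 in each of 15 groups. All embryos came from C57BL/6N females mated with DBA/2N males, and no group carried a mutation. In the embryo, the tissues were inner cell mass (ICM) and trophectoderm (TE) at embryonic day (E) 3.5, ICM at E4.0, epiblast (Epi) and visceral endoderm (VE) at E5.5 and at E6.5, and ectoderm (Ect), primitive streak (PS), mesoderm (Mes) and endoderm (End) at E7.5. By the labels, a second set of embryos was flushed at E4.5 and cultured in vitro in a medium with 20% fetal bovine serum. After 4 days epiblast and visceral endoderm were dissected from them. Libraries of 1 and 2 days are labelled as whole embryos, although the protocol given for them isolates the inner cell mass. The names of their deposited values point to E4.0, where the labels give E4.5. The tissues were separated by dissection or immunosurgery and sequenced in bulk, so a lower value can mean fewer cells of a type or less RNA per cell, and the 2 cannot be told apart. The labels do not say whether the 2 libraries of a group came from separate litters, so the p-values measure only the spread between these samples.

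Lateral plate mesoderm is the sheet of mesoderm beside the paraxial mesoderm that gives rise to the heart, the body wall and limb buds, and the linings of the body cavity. During gastrulation, epiblast cells leave the primitive streak as mesoderm. The earliest of them form extraembryonic mesoderm of the amnion, allantois and yolk sac, and the next ones migrate forward to form the heart fields. A shared set of transcription factors acts in the heart fields, among them the bHLH factors Hand1 and Hand2, the homeodomain factor Nkx2-5, the T-box factor Tbx20, the zinc finger factor Gata5 and the MADS box factor Mef2c. Foxf1, a forkhead factor, marks the visceral layer of the lateral plate and extraembryonic mesoderm. Myl7 (atrial myosin light chain) and Tnnt2 (cardiac troponin T) belong to the contractile apparatus that the heart muscle builds later. Hand1 also has a well known role in trophoblast giant cells of the placenta.

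RefSeq promoter sequences (assembly GRCm38.p6) were matched for 7 of the 9 genes, which have 10 entries in all. The 250 bases before the annotated start are printed for 4 genes whose mesoderm levels are described below. They are a pair that holds some of the motifs marked by capitals and a pair that holds none of those. Capitals mark matches, on either strand, to GATAA (GATA factors), CAAGTG (the NKX2 family), AGGTGT (T-box factors), TATAAA (the TATA box), the MEF2 site and the CArG box of serum response factor. Each sequence runs 5′ to 3′ on the strand of its gene.
Hand2 (chr8:57320733-57320982, plus strand): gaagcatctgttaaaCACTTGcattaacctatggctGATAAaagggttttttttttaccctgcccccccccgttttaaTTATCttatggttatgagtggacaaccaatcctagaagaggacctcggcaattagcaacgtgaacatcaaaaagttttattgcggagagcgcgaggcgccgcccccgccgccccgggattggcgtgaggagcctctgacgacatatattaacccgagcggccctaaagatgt
Myl7 (chr11:5898783-5899032, minus strand): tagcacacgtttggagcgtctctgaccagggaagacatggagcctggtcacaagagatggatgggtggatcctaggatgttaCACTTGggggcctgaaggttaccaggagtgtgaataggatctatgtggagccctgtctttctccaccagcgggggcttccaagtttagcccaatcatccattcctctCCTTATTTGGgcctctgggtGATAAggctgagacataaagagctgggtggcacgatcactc
Gata5 (chr2:180334680-180334929, minus strand): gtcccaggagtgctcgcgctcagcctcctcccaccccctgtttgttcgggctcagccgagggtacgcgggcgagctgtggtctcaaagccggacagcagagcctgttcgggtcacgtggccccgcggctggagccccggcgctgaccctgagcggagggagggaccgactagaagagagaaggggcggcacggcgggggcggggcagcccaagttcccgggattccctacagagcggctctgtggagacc
Tbx20 (chr9:24774304-24774553, minus strand): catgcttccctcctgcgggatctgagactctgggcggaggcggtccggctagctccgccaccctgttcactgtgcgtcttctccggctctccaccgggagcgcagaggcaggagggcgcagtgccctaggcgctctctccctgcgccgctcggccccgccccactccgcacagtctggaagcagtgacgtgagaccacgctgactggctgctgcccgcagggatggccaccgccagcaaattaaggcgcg

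Hand2, on chromosome 8, held 2 GATAA matches and 1 CAAGTG match, and Myl7, on chromosome 11, held 1 of each and a CArG box. Gata5 and Tbx20 held none of the 6 motifs, and each had 22 CpG dinucleotides where the median over all 32851 entries of this length was 6. Their GC content was 70.0% and 68.8%, against a median of 52.4%. Hand2 had 15 CpGs and 49.2% GC, and Myl7 had 4 CpGs and 52.8% GC. Other entries without the 6 motifs had fewer CpGs, with 8 for Nkx2-5, 0 for 1 entry of Tnnt2 and 4 for 1 entry of Mef2c. Of the 10 entries, 4 held GATAA, which 22.6% of all entries hold, and 3 held CAAGTG, which 11.6% hold. TATAAA was found in 2 (12.4% of all), AGGTGT in 1 (11.8%), the CArG box in 1 (1.47%) and the MEF2 site in 0 (2.92%). The short E-box CANNTG, the class of site bound by bHLH factors such as Hand1 and Hand2, was found in 8 of 10 and in 66.2% of all entries and is not capitalised. These matches describe letters in a short window and were not tested for binding.

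The expression values are FPKM, fragments scaled to gene length and to library size, so levels of different genes are compared per length here. The sum of FPKM over genes was 272055 to 486836 in the 22 libraries of embryos, 354191 to 405412 after 4 days of culture and 535833 to 580771 after 1 and 2 days. The 2 libraries of a group correlated across genes at r between 0.898 (2 days of culture) and 0.994 (E7.5 mesoderm). In E7.5 mesoderm, Mesp1, which marks nascent cardiac mesoderm, had 48.5 and 49.5 FPKM, and Kdr, a receptor of early lateral mesoderm, averaged 16.9 FPKM. Primitive streak markers summed to 42.1 to 45.8 FPKM there and to 568 to 604 FPKM in the streak, and visceral endoderm markers to 4.38 to 5.95 FPKM against 6931 to 7562 FPKM in E7.5 endoderm. Paraxial mesoderm markers summed to 289.7 to 392.4 FPKM in the streak. In the mesoderm libraries they summed to 73.1 to 93.7 FPKM, with 5 of 7 at 1 FPKM or more. Blood and endothelial markers summed to 46.8 to 52.6 FPKM. Among them Etv2 averaged 38.4 FPKM and the globin genes Hbb-y and Hbb-bh1 were at 0. Other marker lists were not at 0 in the mesoderm libraries either. Epiblast markers summed to 119 to 126 FPKM, and definitive endoderm and node markers to 57.1 to 92.4 FPKM. Of the latter, Cer1 alone had 50.4 and 86.0 FPKM, while Sox17, Foxa1 and Shh were at 0. Trophoblast markers summed to 371 to 409 FPKM, with Elf5 at 0 and the keratins Krt8 and Krt18 averaging 126.2 and 243.4 FPKM. In E7.5 endoderm this list summed to 1189 to 1276 FPKM, with Krt8 and Krt18 averaging 376.0 and 836.6 FPKM. The part of these other cell types in the levels below was not tested.

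In the embryo, E7.5 mesoderm held the highest level of each of the 9 genes. For all 9, both mesoderm libraries lay above each of the other 20 libraries of embryos, which was true of 2.91% of all 22563 genes. The genes are markers of this tissue, so this count describes them and is not used as evidence. The levels spanned a wide range. Myl7 had 334.7 and 360.0 FPKM and Hand1 210.2 and 165.4 FPKM, Foxf1, Tbx20, Gata5, Mef2c and Hand2 lay between 2.63 and 12.4 FPKM, and Tnnt2 and Nkx2-5 between 0.230 and 1.61 FPKM.

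**Figure D1:**
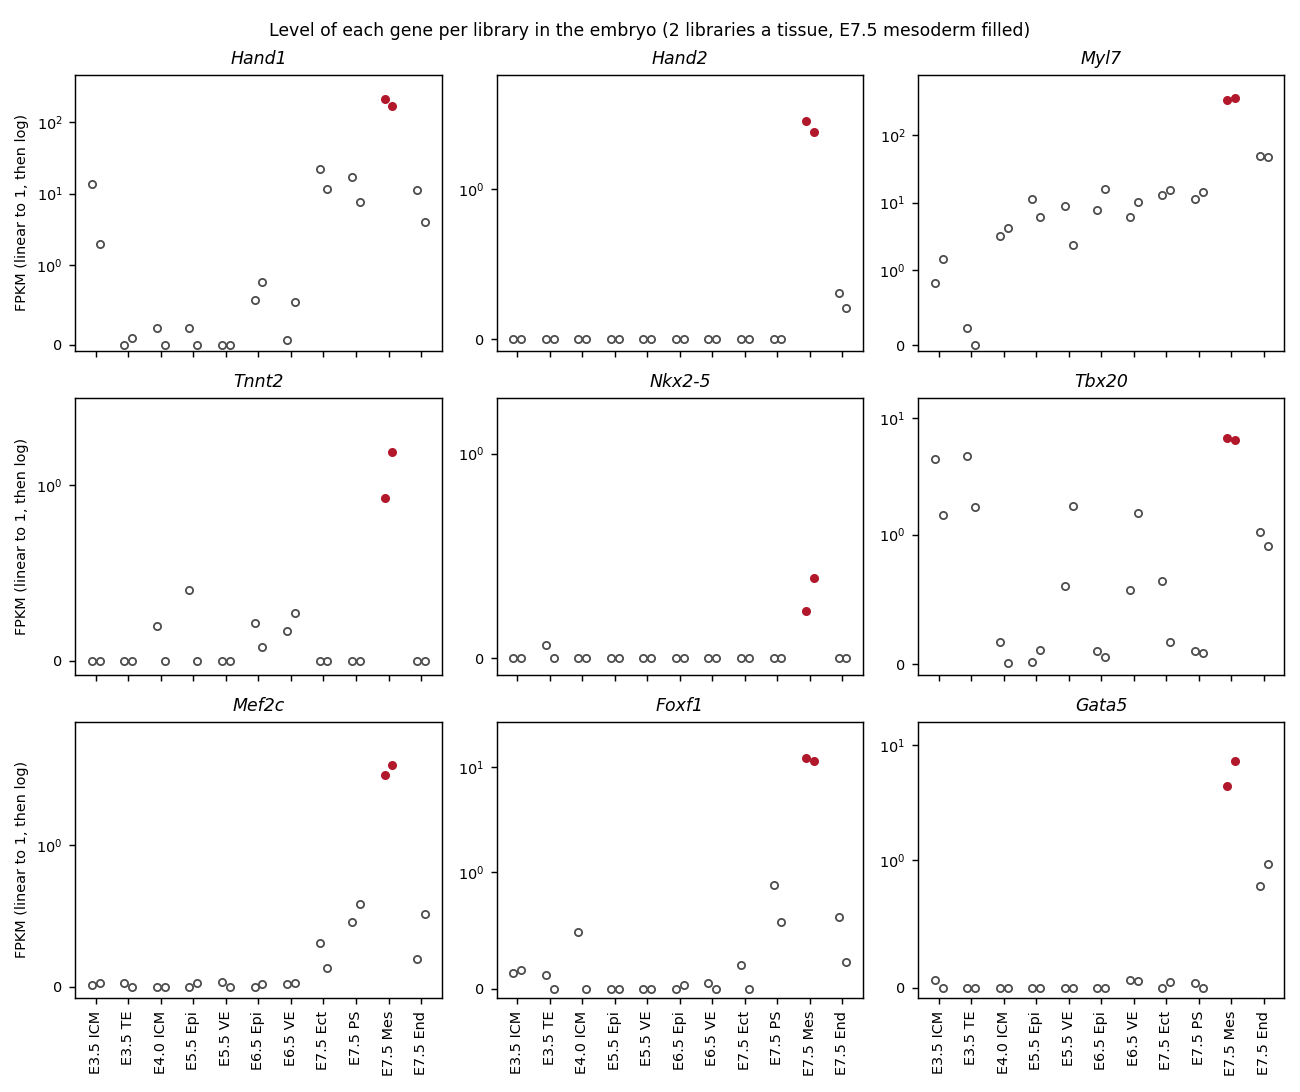
FPKM of each gene in the 2 libraries of every tissue of the embryo (y axis linear up to 1 FPKM, logarithmic above it, a scale of its own for each gene). The filled points of E7.5 mesoderm are the highest in each panel, from 0.230 FPKM for Nkx2-5 to 360.0 FPKM for Myl7, and at E3.5 Hand1 reaches 13.7 FPKM and Tbx20 4.71 FPKM in the higher library.

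The differences were tested with limma on log2(FPKM + 1), in 1 fit over all 15 groups. A gene is called higher or lower here where the Benjamini-Hochberg adjusted p over all 13493 tested genes was below 0.05 and the log2 fold at least 1. Folds on this scale understate the change of genes with low values. Of the 9 genes, 7 passed the filter of at least 1 FPKM in 2 libraries, and Tnnt2 and Nkx2-5 did not. Hand2, Mef2c, Foxf1 and Gata5 passed it only through the mesoderm libraries, so they had to differ there, and their p-values add nothing to their values. Hand1, Myl7 and Tbx20 also reached 1 FPKM in other tissues.

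Hand1, a bHLH factor of extraembryonic mesoderm and of the outer heart field, had 210.2 and 165.4 FPKM in mesoderm. It had 22.2 and 11.8 FPKM in ectoderm, 17.3 and 7.71 FPKM in primitive streak and 11.1 and 4.06 FPKM in endoderm. The mesoderm libraries stood clear of the rest. Those of the streak overlapped both ectoderm and endoderm, and both ectoderm libraries lay above both endoderm libraries. The mean in mesoderm was 11.1 times that in ectoderm, the next group, and in each of the 4 tissues the library numbered 1 was the higher. Against ectoderm the log2 fold was 3.45 ± 0.618 (SE, limma adjusted p = 0.000916), against the streak 3.89 (adjusted p = 0.000291) and against endoderm 4.58 (adjusted p = 1.25e-05).

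At E5.5 and E6.5 Hand1 was below 1 FPKM in every library. It had 0.559 and 0.788 FPKM in E6.5 epiblast, 0.0600 and 0.531 FPKM in E6.5 visceral endoderm, 0.214 and 0 FPKM in E5.5 epiblast and 0 in both libraries of E5.5 visceral endoderm. The level in E7.5 primitive streak was above that of E6.5 epiblast, with a log2 fold of 2.92 ± 0.618 (limma adjusted p = 0.00539). The adjusted p was 0.138 without the first streak library and 0.0638 without the first epiblast library, so this call rests on both of them. Streak and ectoderm at E7.5 did not differ beyond the spread (log2 fold -0.45, adjusted p = 0.925).

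Myl7, the atrial myosin light chain, was detected long before mesoderm formed. It had 0.825 and 1.45 FPKM in E3.5 ICM, 3.25 and 4.13 FPKM in E4.0 ICM, 11.2 and 6.10 FPKM in E5.5 epiblast and 7.83 and 16.1 FPKM in E6.5 epiblast. In visceral endoderm it had 8.84 and 2.34 FPKM at E5.5 and 6.08 and 10.3 FPKM at E6.5. From E5.5 on these libraries overlapped between neighbouring groups in the order of means, and E3.5 TE was lowest with 0.232 and 0 FPKM. Myl7 was not called between E3.5 ICM and TE, between E3.5 and E4.0 ICM, between E5.5 and E6.5 in either tissue, or between epiblast and visceral endoderm at either stage, and E4.0 was not tested against E5.5.

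At E7.5, Myl7 had 12.9 and 15.6 FPKM in ectoderm, 11.3 and 14.6 FPKM in primitive streak, 49.6 and 47.3 FPKM in endoderm and 334.7 and 360.0 FPKM in mesoderm. Mesoderm and then endoderm stood apart, while ectoderm and streak lay in the range of the E6.5 epiblast. The log2 fold of mesoderm was 4.52 ± 0.566 against ectoderm (limma adjusted p = 1.2e-05) and 4.65 against the streak (adjusted p = 1.19e-05). Against endoderm it was 2.82 (adjusted p = 0.00123), and this call was lost with a pseudocount of 0.1 FPKM in place of 1 (adjusted p = 0.119).

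Tbx20, a T-box factor needed for growth of the heart chambers, had 6.75 and 6.5 FPKM in mesoderm, 0.645 and 0.175 FPKM in ectoderm, 0.103 and 0.0852 FPKM in the streak and 1.05 and 0.913 FPKM in endoderm. The mesoderm libraries lay above all others at E7.5, and the log2 folds were 2.45 ± 0.372 against ectoderm (limma adjusted p = 0.000137), 2.80 against the streak and 1.94 against endoderm (adjusted p = 0.000745). Its second highest group was not a gastrulation tissue. Tbx20 had 4.71 and 1.73 FPKM in E3.5 TE and 4.49 and 1.49 FPKM in E3.5 ICM, and the mesoderm mean was 2.06 times that of TE. In both E3.5 tissues the first library was the higher, and the tissues overlapped. By E4.0 the ICM had 0.172 and 0.0112 FPKM.

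Foxf1 had 12.4 and 11.6 FPKM in mesoderm, 0.891 and 0.571 FPKM in the streak, 0.614 and 0.234 FPKM in endoderm and 0.203 and 0 FPKM in ectoderm, and at most 0.484 FPKM in any earlier library. Its mean in mesoderm was 16.4 times that of the streak, the next group. Gata5, which acts upstream of heart and endoderm genes, had 4.41 and 7.31 FPKM in mesoderm and 0.799 and 0.969 FPKM in endoderm, and at most 0.0652 FPKM in any other library of embryos. The mesoderm libraries differed from each other more for Gata5 than for Foxf1, and still lay above all others.

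Mef2c, a factor of the anterior heart field and later of muscle, had 3.58 and 4.28 FPKM in mesoderm, 0.461 and 0.589 FPKM in the streak, 0.310 and 0.131 FPKM in ectoderm and 0.198 and 0.517 FPKM in endoderm. Before E7.5 no library of embryos exceeded 0.0363 FPKM. Hand2, the relative of Hand1 that acts in the right ventricle, limb and branchial arches, had 3.18 and 2.63 FPKM in mesoderm and 0.306 and 0.205 FPKM in endoderm, and was listed at 0 in the other 18 libraries of embryos. In mesoderm Hand1 had at least 165.4 FPKM where Hand2 had at most 3.18 FPKM, and in ectoderm and streak Hand1 was detected where Hand2 was listed at 0.

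Tnnt2, the troponin subunit that anchors the complex to tropomyosin, had 0.924 and 1.61 FPKM in mesoderm. It was listed at 0 in all libraries of ectoderm, streak and endoderm and had at most 0.400 FPKM in any earlier library. Nkx2-5, an early regulator of the heart lineage, had 0.230 and 0.391 FPKM in mesoderm and 0.0657 FPKM in 1 library of E3.5 TE, and was at 0 in the other 19 libraries of embryos. Both were too low for the test. At E7.5, therefore, the contractile gene Myl7 was the most abundant per length of the 9 while Tnnt2, of the same apparatus, was among the 2 least.

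For 5 genes the low values came in whole multiples of a step, within 0.1 reads. The smallest value was taken as 1 read, so the reads given here are inferred from FPKM, and the larger ones are rounded. For Nkx2-5 the step rests on 3 low values. Nkx2-5 rested on 3 and 5 reads in mesoderm and on 1 read in TE, which is too few to give a ratio. Foxf1 had 272 and 251 reads in mesoderm, 16 and 12 in the streak, 11 and 5 in endoderm and 4 and 0 in ectoderm. Gata5 had 136 and 222 reads in mesoderm and 20 and 29 in endoderm, and Mef2c 220 and 259 in mesoderm, 23 and 35 in the streak and 10 and 31 in endoderm. Hand1 had 3522 and 2733 reads in mesoderm and 151 and 66 in endoderm. The low mesoderm levels of Foxf1, Gata5 and Mef2c thus rested on 136 or more reads each, and those of the other E7.5 tissues on 35 or fewer. Myl7, Tnnt2 and Tbx20 gave no such steps. Hand2 had 2 low values, too few to look for a step.

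**Figure D2:**
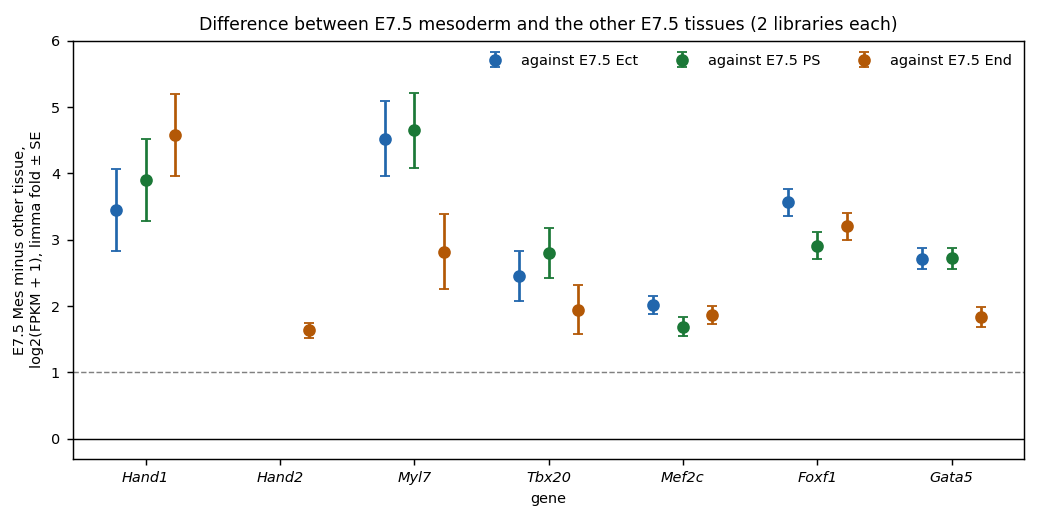
Log2 fold of E7.5 mesoderm over each other E7.5 tissue for the 7 tested genes, on the log2(FPKM + 1) scale with the limma standard error (2 libraries a tissue). Points lie between 1.64 (Hand2 against endoderm) and 4.65 (Myl7 against the streak), all above the dashed line at 1, and Hand2 has no point against ectoderm and streak, where it was listed at 0.

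Over all genes, 3.09% were called higher in mesoderm than in ectoderm, 1.57% than in the streak, 2.24% than in endoderm and 4.14% than in E6.5 epiblast. Hand1, Myl7 and Tbx20 were called in each of these 4 comparisons, as were the 4 genes that had to differ. Against ectoderm the small adjusted p-values depend on the spread pooled over all groups. In a fit on the libraries of mesoderm and ectoderm alone the adjusted p of the 7 lay between 0.0517 and 0.0695 with the same folds, and that fit called 0 of all tested genes.

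Relative to mesoderm, the 3 other E7.5 tissues held different shares of the 9 levels. In endoderm the mean was 13.9% of the mesoderm mean for Myl7, 14.8% for Tbx20 and 15.1% for Gata5, 8.79% for Hand2 and 9.11% for Mef2c, and 4.03% for Hand1 and 3.54% for Foxf1. In ectoderm it was 9.04% for Hand1 and 0.847% for Foxf1, and in the streak 13.4% for Mef2c, 6.65% for Hand1 and 0.340% for Gata5. A single share does not describe these genes in any of the tissues. Markers of other mesoderm were also present in endoderm, where Kdr stood at 6.78%, Tcf21 at 8.94%, Mesp1 at 8.10%, and the paraxial genes Tbx6 and Msgn1 at 23.2% and 19.6% of their mesoderm mean. In ectoderm the genes of the lateral plate list ranged widely, with Kdr at 0.657% and Tcf21 at 0, but Snai1 at 11.1%, Msx1 at 18.3% and Msx2 at 20.2%. How far mesoderm cells in these dissected tissues account for the levels was not tested.

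**Figure D3:**
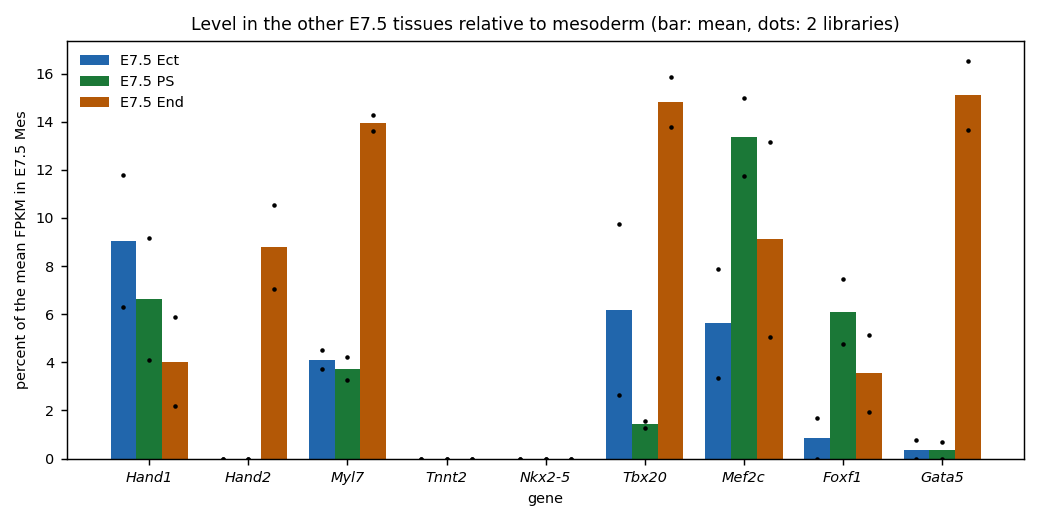
Mean FPKM in E7.5 ectoderm, streak and endoderm as a percentage of the mean in mesoderm (bars, from 0), with the 2 libraries of each as dots. Endoderm bars of Myl7, Tbx20 and Gata5 reach 13.9% to 15.1%, Mef2c is highest in the streak at 13.4%, and Tnnt2 and Nkx2-5 are at 0 in all 3 tissues.

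Endoderm at E7.5 was also compared with visceral endoderm a day earlier. Hand1 was higher at E7.5, with a log2 fold of 2.62 ± 0.618 (limma adjusted p = 0.0120), and so was Myl7, with 2.47 ± 0.566 (adjusted p = 0.00947). These 2 were the calls among the 7 tested genes, where 3.39% of all genes were called higher. Gata5 had at most 0.0652 FPKM in E6.5 visceral endoderm and 0.799 and 0.969 FPKM in E7.5 endoderm. Its log2 fold of 0.83 (adjusted p = 0.00141) was under the size required for a call. The 2 calls are fragile. Hand1 lost its call without either visceral endoderm library or the first endoderm library (adjusted p from 0.0510 to 0.273), and Myl7 without the first visceral endoderm library or either endoderm library (adjusted p from 0.0719 to 0.141). Mesp1 had 1.30 and 1.41 FPKM in E6.5 visceral endoderm and averaged 3.97 FPKM in E7.5 endoderm, and Kdr went from 0.0384 and 0.0468 FPKM to an average of 1.15 FPKM. Other genes of the cardiac and lateral plate lists did not rise. Bmp2 averaged 24.7 FPKM and then 9.12 FPKM. Snai1, Gata4 and Gata6 had log2 folds of -0.10, -1.26 and -0.76 and were not called. The part of mesoderm cells in these differences was not tested.

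Before gastrulation no gene of the 7 was called between epiblast and visceral endoderm. This was so at E5.5, where 36.7% of all genes were called, and at E6.5, where 16.5% were. At an unadjusted p below 0.05, 1 gene passed at each stage by limma, and it was Tbx20. Tbx20 had 0.0195 and 0.110 FPKM in E5.5 epiblast and 0.605 and 1.76 FPKM in E5.5 visceral endoderm, a log2 fold of -0.98 ± 0.372 (adjusted p = 0.0379), and 0.104 and 0.0561 FPKM against 0.573 and 1.52 FPKM at E6.5 (log2 fold -0.88, adjusted p = 0.109). At both stages the visceral endoderm libraries lay above the epiblast libraries. Neither epiblast (0.978% of genes called, either direction) nor visceral endoderm (27.2%) gave a call among the 7 genes from E5.5 to E6.5, where 0 had an unadjusted p below 0.05. No change in the epiblast to visceral endoderm difference between the stages was detected for any of the 7 (0 called and 0 at an unadjusted p below 0.05, 6.07% of all genes called). Between primitive streak and ectoderm at E7.5 none of the 7 was called (1.98% of all genes), with 2, Mef2c and Foxf1, at an unadjusted p below 0.05, and between streak and E6.5 epiblast Hand1 was the 1 call (2.56% called higher). In that last comparison Mef2c and Foxf1 had log2 folds of 0.59 and 0.76 (limma adjusted p = 0.0127 and 0.0296), under the size required for a call.

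At E3.5 Hand1 was found in the ICM, with 13.7 and 1.98 FPKM, and hardly in TE, with 0 and 0.0820 FPKM. These values correspond to 234 and 19 inferred reads in ICM. The log2 fold was 2.67 ± 0.618 (limma adjusted p = 0.00375), and Hand1 was the 1 gene of the 9 called, where 9.54% of genes were called higher in ICM. At E4.0 Hand1 had 0.211 and 0 FPKM in ICM, a log2 fold of -2.59 from E3.5 (adjusted p = 0.00436), and Tbx20 also fell (log2 fold -1.76 ± 0.372, adjusted p = 0.00165). Those were the 2 calls, both lower, where 4.80% of genes were called lower. All 3 calls rest on the first E3.5 ICM library. Without it the log2 folds were 1.52 (adjusted p = 0.143) for Hand1 against TE, -1.44 (adjusted p = 0.144) for Hand1 and -1.19 (adjusted p = 0.0569) for Tbx20 at E4.0. Trophoblast markers summed to 196 FPKM in that library and 278 FPKM in the other, against 1396 and 3089 FPKM in TE. The part of trophoblast cells in the Hand1 level of the ICM was not tested.

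In cultured embryos Hand1 was again the gene that stood out. It had 205 and 171 FPKM after 1 day and 482 and 120 FPKM after 2 days of culture. The 2 days overlapped, and the log2 fold was 0.36 ± 0.618 (limma adjusted p = 0.831). Myl7 had 0 and 3.78 FPKM and then 1.53 and 2.05 FPKM, Tbx20 0 and 0.0131 FPKM and then 0.350 and 1.35 FPKM, and Foxf1 0 in both and then 0.893 and 0.360 FPKM. Tnnt2, Mef2c and Gata5 had at most 0.0540 FPKM in any of the 4 libraries, and Hand2 and Nkx2-5 were at 0 in all of them. None of the 7 tested genes was called between the days (6.46% of all genes called), with 2 at an unadjusted p below 0.05, Tbx20 and Foxf1. Trophoblast and extraembryonic ectoderm markers summed to 1369 to 1502 FPKM after 1 day and 1611 to 3873 FPKM after 2 days, with 10 of 10 genes at a mean of 1 FPKM or more at both times. Elf5, a regulator of trophoblast stem cells, had 68.0 and 41.2 FPKM and then 105.0 and 60.0 FPKM, and Ascl2, of the ectoplacental cone, 0 and 3.65 FPKM and then 183.8 and 12.9 FPKM. Mesp1 had 0 in both libraries of 1 day and 0.453 and 0 FPKM after 2 days. The second-day library with 482 FPKM of Hand1 stood apart, with 3.21 FPKM of Pou5f1, a pluripotency gene, against 96.7 FPKM in the other, and it also had the trophoblast sum of 3873 FPKM. Whether trophoblast cells account for the Hand1 level was not tested. The cultured embryos are in tables of their own, and their levels were not compared with those of the embryo.

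**Figure D4:**
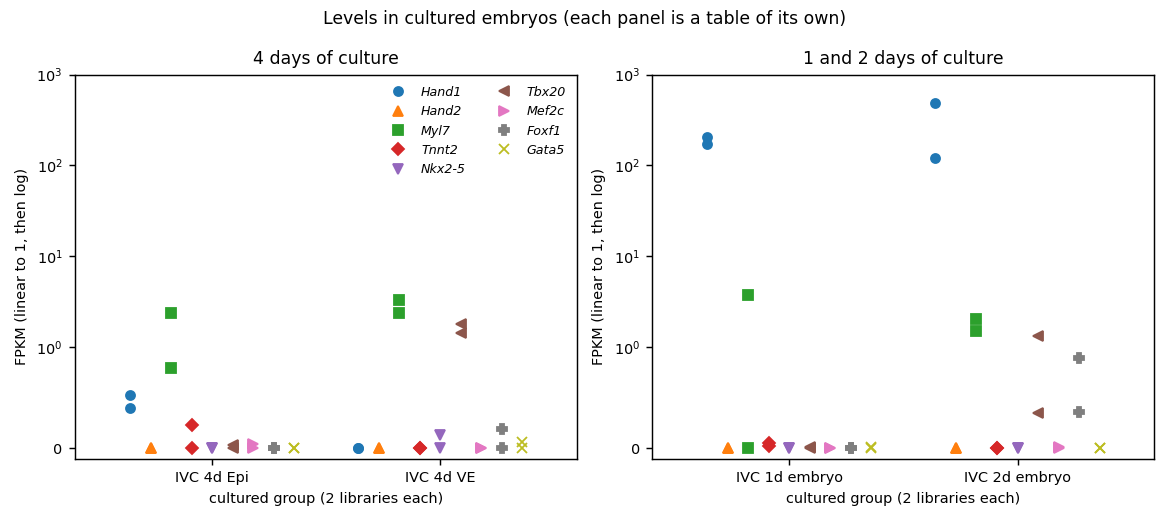
FPKM of the 9 genes in cultured embryos, both libraries of each group (y axis linear up to 1 FPKM, logarithmic above it). The panels come from separate tables and different material and are not compared with each other. In the panel of 1 and 2 days Hand1 lies between 120 and 482 FPKM, far above the other 8 genes, and in the panel of 4 days Tbx20 is above 1 FPKM in visceral endoderm and near 0 in epiblast.

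After 4 days of culture the 9 genes were low in both tissues. Hand1 had 0.405 and 0.530 FPKM in epiblast and 0 in both libraries of visceral endoderm, and Myl7 2.37 and 0.794 FPKM in epiblast and 3.33 and 2.36 FPKM in visceral endoderm. Tnnt2 had 0.232 and 0 FPKM in epiblast, Foxf1 0.190 FPKM, Nkx2-5 0.134 FPKM and Gata5 0.0680 FPKM in 1 library of visceral endoderm each, and Mef2c 0.0487 FPKM in 1 library of epiblast. Hand2 was at 0 in all 4 libraries. Tbx20 was the 1 gene of the 9 called. It had 0.0367 and 0 FPKM in epiblast and 1.43 and 1.79 FPKM in visceral endoderm, the same order as at E5.5 and E6.5, with a log2 fold of epiblast over visceral endoderm of -1.36 ± 0.372 (limma adjusted p = 0.00905), where 13.6% of all genes were called lower. The adjusted p was 0.0516 without the second epiblast library and 0.0612 without the second visceral endoderm library.

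Other genes of the same programmes were counted in lists chosen with earlier results of these data known. A gene of any of these lists that passed the filter only through the mesoderm libraries had to differ there. The counts of all these lists are therefore descriptions and are not used as evidence. Of 22 other cardiac transcription factors 18 were tested, and 9 were called higher in mesoderm than in ectoderm, 8 than in the streak and 4 than in endoderm, where Hopx was lower. Of all genes 3.09%, 1.57% and 2.24% were called higher in these 3 comparisons. Mesp1 had 48.5 and 49.5 FPKM in mesoderm and 13.7 and 22.6 FPKM in the streak, where it was already called above ectoderm (log2 fold 3.64, limma adjusted p = 1.44e-09). Isl1, of the second heart field, had 17.6 and 14.6 FPKM in mesoderm and 8.22 and 7.49 FPKM in endoderm. Tbx5, of the first heart field, had 1.08 and 1.12 FPKM in mesoderm. The median log2 fold of the 18 against ectoderm was 1.31, beside 0.18 over all genes.

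Of 24 other heart muscle genes 16 were tested, and the 4 called higher in mesoderm than in ectoderm were Myl2, Acta2, Actc1 and Tnni1, with a list median of 0.54 (3.09% of all genes called higher). The same 4 were called against the streak, and against endoderm 6 were higher and Myl3 lower. Actc1, the cardiac actin, had 14.9 and 16.2 FPKM and Myl2, the ventricular light chain, 7.48 and 6.45 FPKM in mesoderm, well under Myl7. Of 21 other lateral plate and extraembryonic mesoderm genes 19 were tested. In mesoderm 15 were higher than in ectoderm (median 2.75), 13 than in the streak and 11 than in endoderm, none lower, beside 3.09%, 1.57% and 2.24% of all genes called higher. Among them Tcf21 had 16.3 and 16.7 FPKM in mesoderm and 0 in ectoderm and streak, and Bmp4, the growth factor of extraembryonic mesoderm, 38.9 and 32.5 FPKM in mesoderm and 1.33 and 0.532 FPKM in ectoderm.

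The genes followed one another to different degrees across the 22 libraries of embryos. Pearson's r of log2(FPKM + 1) was 0.972 between Mef2c and Foxf1, 0.971 between Hand2 and Gata5 and 0.969 between Hand2 and Foxf1. It was 0.736 between Hand1 and Myl7, the 2 most abundant, 0.493 between Hand1 and Tbx20 and 0.201 between Myl7 and Tbx20, the lowest of the pairs. The points share the same 2 mesoderm libraries, which carry most of each high value. Among 8690 genes that reach a mean of 5 FPKM in some tissue, the nearest to Foxf1 were Snai2 (0.977), Osr1 (0.975) and Kdr (0.971), and the nearest to Gata5 were Alx1 (0.984), Tdo2 (0.984) and Tcf21 (0.983). Cap2, Mn1 and Cd44 were nearest to Hand1 (0.905, 0.894 and 0.890), and Pcp4, Tmem88 and Pmp22 to Myl7 (0.900, 0.897 and 0.897). For Tbx20, with its second level at E3.5, the nearest were Dok4 (0.801), Popdc2 (0.731) and Hmga2 (0.718), and Hmga2 averaged 25.5 FPKM in mesoderm and 29.2 FPKM in E3.5 ICM.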

How the data were processed

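The RNA-seq values were deposited by the authors as FPKM per gene, from poly(A) RNA in libraries of the Smart-Seq2 type. Reads were mapped to mm9 with TopHat2 2.0.11 and quantified by Cufflinks (2.0.2), according to tools listed per the submitters' processing notes. Per the labels' protocols, preimplantation cells were lysed without purification, whereas postimplantation tissues went over a column. Values up to 1e-06 were set to 0, and 27 symbols that had turned into dates were dropped. limma 3.58.1 in R 4.3.3 was run with a trended prior on log2(FPKM + 1) over 30 libraries, for genes of at least 1 FPKM in 2 libraries, and was tested on simulated data. In total 15 comparisons and 1 difference of differences were made, within a table each. The 9 genes and all lists were chosen with earlier results of these data known. All 9 are named in each comparison, and up to 4 called genes of each other list. Alternatives were pseudocount, filter, normalization, array weights, a replicate block, narrower fits and libraries left out. The authors' tissue values lay between the 2 libraries in 97 of 99 cases for these genes. DNA methylation was not analysed here, and promoters of Hand1 and Foxf1 and protein sequences were not used.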

Additional observations from a re-analysis of the deposited data

How the results depend on the processing

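No fold of a called gene changed direction under any alternative run. There were 35 called folds. They include the mesoderm folds of Hand2, Mef2c, Foxf1 and Gata5, which had to differ, so the stability of those is not used as evidence. None of the 35 lost its call under quantile normalization, array weights, no filter or a replicate block. Nor did any of the 34 that a fit on libraries of the same table gave. A pseudocount of 0.1 FPKM lost 2, a fit restricted to each comparison's own groups 11, and leaving out a library 13 of 140. With a filter of 5 FPKM, 4 genes were tested and 4 called in mesoderm against ectoderm, streak, endoderm and E6.5 epiblast. Of these, Tbx20 and Foxf1 passed that filter only through the mesoderm libraries, so their calls under it add nothing to their values. Over all genes that filter called 381, 291, 1008 and 707 in these comparisons, in either direction. In the fit restricted to each comparison's own groups, the genes called were 0 in mesoderm against ectoderm, 1 in E7.5 endoderm against E6.5 visceral endoderm, 0 in E3.5 ICM against TE and 0 in E4.0 against E3.5 ICM. Over all genes that fit called 0, 826, 888 and 1860, where the fit over all groups called 605, 575, 2333 and 2778. With a pseudocount of 0.1 FPKM the count was 3 for streak against E6.5 epiblast, 1 for epiblast against visceral endoderm at E5.5 and 1 at E6.5, 4 for E7.5 endoderm against E6.5 visceral endoderm, 2 for epiblast against visceral endoderm after 4 days of culture and 2 for 2 days against 1 day. Of all 13493 tested genes that pseudocount called 385, 5442, 2091, 442, 3425 and 915 in the same order, in either direction. Quantile normalization gave 1 for epiblast against visceral endoderm at E5.5, where it called 4484 of all genes. The cause of these changes was not tested. Leaving out a library gave 0 to 1 for streak against E6.5 epiblast, 0 to 1 for epiblast against visceral endoderm at E5.5, 0 to 1 for E7.5 endoderm against E6.5 visceral endoderm, 0 to 1 for E3.5 ICM against TE, 0 to 2 for E4.0 against E3.5 ICM and 0 to 1 for cultured epiblast against visceral endoderm. The labels do not say what a replicate number stands for, and groups hold 2 numbers each. The lowest correlation of same-numbered deviations ran from -0.268 to 0.258 over the comparisons, with 0.258 for mesoderm against streak and 0.202 against endoderm. The libraries were therefore not treated as pairs, and a replicate block gave 7 called genes in mesoderm against ectoderm, streak and endoderm, as without it. Hand2, Mef2c, Foxf1 and Gata5, which had to differ, are among the 7. Over all genes the block called 594, 456 and 1374 in these comparisons, in either direction. Depth limits Nkx2-5, with at most 5 inferred reads, and the values of Foxf1, Gata5 and Mef2c outside mesoderm. For Hand2, Myl7, Tnnt2 and Tbx20 the reads are not known.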

Other observations

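Hand factors bind DNA with E proteins, and Id proteins sequester those partners. All 7 listed E protein and Id genes were tested. None was called between mesoderm and ectoderm by limma, with 0 at an unadjusted p below 0.05, and the median log2 fold was 0.12 beside 0.18 over all genes. Of all 13493 tested genes 605 were called there in either direction. Against the streak Id2 was the 1 call, higher in mesoderm (log2 fold 2.02 ± 0.471, limma adjusted p = 0.0128), where 1.57% of all genes were called higher. Id2 had 120.5 and 105.0 FPKM in mesoderm, 28.3 and 25.9 FPKM in the streak, 168.0 and 97.5 FPKM in ectoderm and 310.5 and 224.3 FPKM in endoderm, so the streak libraries lay below those of each other E7.5 tissue. Tcf3, an E protein, had 9.22 and 14.0 FPKM in mesoderm and 12.5 and 14.1 FPKM in the streak, which overlapped.

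After 4 days of culture, 5 of 18 tested cardiac transcription factors were lower in epiblast than in visceral endoderm, Gata4, Gata6, Zfpm1, Tbx3 and Mef2d, and none was higher. Of all genes 13.6% were called lower there. Primitive and parietal endoderm markers, of which Gata4 and Gata6 are also known members, summed to 24.2 to 30.6 FPKM in that epiblast and 1399 to 1574 FPKM in that visceral endoderm.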
